A study of Mus musculus with 96 samples.

Results

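The 7 genes described here, Ctgf, Cyr61, Wisp1, Ankrd1, Amotl2, Axl and Lats2, are transcripts widely used as readouts of the coactivators YAP and TAZ. They were taken by name as 7 of the 54150 rows of a gene count table from C2C12 cells, a mouse myoblast line that fuses into myotubes in low serum. The table covered 96 RNA-seq samples in 35 conditions, 26 with 3 samples and 9 with 2. All 7 genes had counts above the filter in every sample and entered every test.

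Proliferating myoblasts were kept in 10% dialyzed fetal bovine serum and carried a doxycycline-inducible transgene, switched on with 300 ng/ml doxycycline from 24 hours before treatment. Control myoblasts expressed luciferase. The other lines expressed LbNOX, a bacterial water-forming NADH oxidase that acts in the cytosol, mitoLbNOX, the same enzyme directed to the mitochondrial matrix, or NDI1, a yeast NADH dehydrogenase that is not inhibited by piericidin. Treatment lasted 10 hours with DMSO, piericidin (an inhibitor of complex I), antimycin (complex III) or oligomycin (ATP synthase) in control and LbNOX myoblasts. The mitoLbNOX cells received DMSO, piericidin or antimycin, and NDI1 cells DMSO or piericidin, with 2 samples each. Control and LbNOX myoblasts also received chloramphenicol, an inhibitor of mitochondrial translation, or DMSO for 48 hours, with 2 samples each. Day 1 cells were untransduced cells used 24 hours after confluent cultures, grown in 20% fetal serum, were moved to 2% horse serum. They received DMSO, piericidin or oligomycin for 10 hours. Myotubes were treated after 4 days in low serum, also for 10 hours. Untransduced myotubes received DMSO, piericidin, antimycin, oligomycin, the uncoupler BAM15, hypoxia, or oligomycin together with piericidin, BAM15 or hypoxia. By the study's methods, hypoxia began during the night before treatment, so it lasted longer than the other exposures. Further myotubes were transduced at 48 hours of low serum with adenovirus for GFP (2 samples per treatment) or LbNOX (3 per treatment). These received DMSO, piericidin or oligomycin. Because the transgene, doxycycline, serum and density changed together with the cell state, these cannot be told apart in comparisons between states. Nothing in the labels ties replicates to separate cultures, so p-values measure the spread between these samples, which may be technical.

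YAP and TAZ are coactivators that bind TEAD transcription factors, and the kinases LATS1 and LATS2 of the Hippo pathway keep them in the cytoplasm by phosphorylation. Their activity is known to follow cell density, spreading, matrix stiffness and serum. In muscle, YAP is active in proliferating myoblasts and falls on differentiation. Ctgf, Cyr61 and Wisp1 encode secreted matricellular proteins of the CCN family. Ankrd1 encodes a muscle ankyrin repeat protein of the sarcomere and nucleus. Amotl2 encodes a motin, which binds and restrains YAP, and Lats2 encodes the kinase itself, so both belong to the feedback arm. Axl encodes a receptor tyrosine kinase that binds Gas6.

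Promoter sequences from RefSeq (GRCm38.p6) were matched for 5 of the 7 genes, and the letters of the TEAD core, GGAATG on either strand, were searched from 250 bases before to 50 bases after each start site. The core was in 5 of their 6 promoters, at least 1 for each of the 5 genes, against 14.7% of 32851 mouse promoters of the same length. The match is a description of letters and not of binding. Start sites are those of RefSeq. The windows of Amotl2, Ankrd1 and Lats2 lie inside the gene coordinates given below, which come from another annotation. Cyr61 and Ankrd1, whose transcripts rose strongly with antimycin in control myoblasts, and Amotl2 and Axl, whose transcripts moved little there, are shown as the 250 bases before the start, written 5′ to 3′ along the gene with the core in capitals.
Cyr61 (chr3:145649986-145650235, minus strand): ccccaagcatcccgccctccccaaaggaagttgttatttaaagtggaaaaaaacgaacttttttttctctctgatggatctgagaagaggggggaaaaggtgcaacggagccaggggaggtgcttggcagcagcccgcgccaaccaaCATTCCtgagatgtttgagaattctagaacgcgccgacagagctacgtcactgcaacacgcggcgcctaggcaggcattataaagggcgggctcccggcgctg
Ankrd1 (chr19:36119845-36120094, minus strand): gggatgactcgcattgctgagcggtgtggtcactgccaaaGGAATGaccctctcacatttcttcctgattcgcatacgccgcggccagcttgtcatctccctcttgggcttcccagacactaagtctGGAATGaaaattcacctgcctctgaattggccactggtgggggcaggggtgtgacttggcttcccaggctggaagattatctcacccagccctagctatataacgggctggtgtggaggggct
Amotl2 (chr9:102717554-102717803, plus strand): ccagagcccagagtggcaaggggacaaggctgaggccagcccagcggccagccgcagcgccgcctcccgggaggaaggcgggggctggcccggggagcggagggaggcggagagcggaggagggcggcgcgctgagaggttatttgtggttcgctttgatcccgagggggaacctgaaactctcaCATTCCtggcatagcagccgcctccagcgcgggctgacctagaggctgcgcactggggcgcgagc
Axl (chr7:25788734-25788983, minus strand): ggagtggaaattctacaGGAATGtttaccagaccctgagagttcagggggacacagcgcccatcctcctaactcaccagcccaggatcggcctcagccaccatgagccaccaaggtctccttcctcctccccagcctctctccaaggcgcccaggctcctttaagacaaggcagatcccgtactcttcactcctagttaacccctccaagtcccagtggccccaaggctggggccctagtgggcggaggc
The core lay at -103 in Cyr61, at -210 and -123 in Ankrd1, at -65 in Amotl2 and at -233 in Axl, counted from the start site. In Lats2 it lay at 5 bases after the start of 1 of its 2 promoters. No match was found in these 6 windows to the CArG box of serum response factor, the AP-1 site TGANTCA or the ATF4 site TGATGNAA, on either strand, which were found in 1.63%, 7.81% and 3.97% of all promoters.

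In whole-library terms, samples held between 6458295 and 15366745 counts, and the 7 genes together took between 0.0754% and 0.692% of a library. No count of a member was under 108. Transgene counts were 0 in every sample not labelled with that transgene, except that GFP was also counted in LbNOX myotubes, and were at least 372 where the transgene was carried. Of 7 myotube markers, 6 (Myog, Myh3, Myh1, Ckm, Tnnt3 and Mymk) averaged under 1 CPM in myoblasts, and the summed level of all 7 was 10.2 to 94.0 CPM in myoblasts, 10976 to 11681 in day 1 cells and 11706 to 15769 in myotubes. All 6 markers of cycling myoblasts, such as Myod1 and Mki67, averaged at least 1 CPM in each state. Of 13 markers of endothelial, immune, fat, neural and epithelial cells, 10 averaged under 1 CPM in myoblasts and in myotubes. In bulk RNA, fewer cells expressing a gene and less RNA per cell cannot be told apart.

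Per kilobase of the longest annotated transcript, Cyr61 was the most abundant of the 7 in control myoblasts with DMSO, at 208 ± 5.99 CPM per kb (SD, n = 3), followed by Ankrd1 at 135 ± 3.05, Axl at 102 ± 3.7 and Ctgf at 73 ± 2.65. Amotl2, at 28.4 ± 4.7, and Wisp1, at 21.8 ± 1.23, were lower, and Lats2 was the least abundant at 4.55 ± 0.406. Across the 35 conditions the means of Ctgf spanned 93.3-fold, those of Cyr61 40.1-fold and those of Ankrd1 12.2-fold, and all 3 were highest in control myoblasts with antimycin. Wisp1 spanned 3.88-fold, Axl 3.64-fold, Amotl2 2.28-fold and Lats2 2.15-fold. All levels below are TMM-normalized CPM, counts scaled to library size.

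The first comparison asked how the 7 genes respond to each inhibitor in control myoblasts. Antimycin raised Ctgf, Cyr61, Ankrd1 and Wisp1 strongly, and piericidin and oligomycin raised the same 4 less. Ctgf (chr10:24595442-24598683, GRCm38) stood at 175, 181 and 189 CPM with DMSO, 618, 602 and 588 with piericidin, 2761, 2283 and 2364 with antimycin and 345, 326 and 307 with oligomycin. All treated samples lay above all DMSO samples, and the 4 groups did not overlap. Its log2 fold change was 3.80 (SE 0.07, adjusted p = 2.24e-28) with antimycin, 1.77 ± 0.06 (SE) with piericidin and 0.86 ± 0.06 with oligomycin.

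Cyr61 (chr3:145646976-145649981) measured 411, 416 and 434 CPM with DMSO, 749, 813 and 819 with piericidin, 2889.7, 2818 and 2859 with antimycin and 479.9, 459 and 444 with oligomycin. The antimycin samples stood far above the rest, and the oligomycin samples only just cleared DMSO. The log2 fold change was 2.80 (SE 0.05, adjusted p = 7.82e-29) with antimycin and 0.96 ± 0.05 with piericidin, and with oligomycin it was 0.15 (SE 0.05, adjusted p = 0.00728), a call that was lost when replicate number 1 or 2 was left out (log2 fold change 0.11 to 0.19). Ankrd1 (chr19:36111961-36120099) gave 279.8, 271 and 268 CPM with DMSO, 718, 643 and 739.9 with piericidin, 1595, 1650.4 and 1628 with antimycin and 557, 583 and 544 with oligomycin, with no overlap between any of the 4 groups. These were log2 changes of 2.61 (SE 0.06, adjusted p = 3.66e-25), 1.40 ± 0.06 and 1.06 ± 0.06 for antimycin, piericidin and oligomycin.

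Wisp1 (chr15:66891320-66923201) rose with each inhibitor over a smaller range. It was 112, 117 and 104 CPM with DMSO and 242, 223 and 236 with antimycin, a log2 change of 1.11 (SE 0.05, adjusted p = 5.16e-18), and rose by 0.45 ± 0.05 with piericidin and 0.40 ± 0.05 with oligomycin. Of the feedback genes, Amotl2 (chr9:102716672-102733418) rose most with oligomycin, to 237, 219 and 219.7 CPM from 102, 134 and 142, a log2 change of 0.85 (SE 0.08, adjusted p = 7.48e-11). Its DMSO samples were the most spread of the 7 genes in this group, and its change was 0.45 ± 0.08 with piericidin and 0.36 ± 0.08 with antimycin. Lats2 (chr14:57689662-57758388) was 23.1, 21.9 and 26 CPM with DMSO and 27, 21.8 and 28.1 with antimycin, and these samples overlapped. It passed the test only with oligomycin, at 0.31 (SE 0.11, adjusted p = 0.0176), and lost that call without replicate number 1 or 2 (log2 fold change 0.24 to 0.35). Axl (chr7:25757273-25788705) was nearly level, with log2 fold changes of -0.14 (SE 0.05, adjusted p = 0.012) for piericidin, 0.07 ± 0.05 for antimycin and -0.08 ± 0.05 for oligomycin.

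In counts, antimycin raised 5 of the 7 genes and lowered 0 in control myoblasts, against 63.2% of all 11981 genes called (32.1% higher and 31.1% lower), with a median log2 fold change of 1.11 against -0.00 over all genes. Piericidin raised 5 and lowered 1 (61.7% of all genes called, 30.9% higher and 30.8% lower, median 0.45), and oligomycin raised 6 (50.8% called, median 0.40). The shares of members called are near or above these backgrounds, and the groups are described here by the size of the changes. Compared directly, antimycin exceeded piericidin for Ctgf by 2.03 (SE 0.06, adjusted p = 7.33e-21), for Cyr61 by 1.84 ± 0.05, for Ankrd1 by 1.21 ± 0.06 and for Wisp1 by 0.66 ± 0.05 on the log2 scale (37.2% of all genes called). Piericidin exceeded oligomycin for Ctgf by 0.91 (SE 0.06, adjusted p = 5.67e-13), for Cyr61 by 0.81 ± 0.05 and for Ankrd1 by 0.34 ± 0.06, with Amotl2 at -0.41 ± 0.08 and Lats2 at -0.43 ± 0.11 called lower and no difference called for Wisp1, at 0.05 ± 0.05 (39.2% of all genes called). Amotl2 was also lower with antimycin than with oligomycin, at -0.49 (SE 0.08, adjusted p = 2.67e-06) (50% of all genes called). All 3 DMSO samples of control myoblasts came from outer positions of the plate code in the labels, and with a term for outer or inner wells the antimycin change was 3.84 for Ctgf, 2.88 for Cyr61 and 2.63 for Ankrd1.

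Markers of cell state moved in the same samples. The 6 markers of cycling myoblasts summed to 924 to 952 CPM with DMSO and 722 to 779.9 with antimycin in control myoblasts, where 4 fell and 2 rose (median log2 fold change -0.65). In LbNOX myoblasts the sum was 862 to 899 CPM with DMSO and 419 to 450.0 with antimycin, and 4 fell and 0 rose (median -0.85). In control cells the sum was 777 to 857 CPM with piericidin and 731 to 751 with oligomycin, and 4 of the 6 fell with each. Of the 7 myotube markers only Acta1, skeletal muscle actin, passed the filter, and it rose with antimycin by 2.44 in control and 1.08 in LbNOX myoblasts on the log2 scale. The sum of all 7 was 17.1 to 21.3 CPM with DMSO and 81.9 to 94 with antimycin in control cells, while Myh3 and Myh1 were at 0 with antimycin there. Of the 13 markers of other cell types 3 were tested and 2 rose in both lines, and their sum was 31 to 34.3 CPM with DMSO and 66.9 to 76 with antimycin in control cells. It was 130.2 to 149 CPM with piericidin and 45.7 to 54.6 with oligomycin, most of it from the tubulin gene Tubb3 in each group, with Adipoq and Cidec at 0. Of the 3 tested, 1 rose with piericidin and 1 with oligomycin. The part of these markers in the responses of the 7 genes was not tested.

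**Figure D1:**
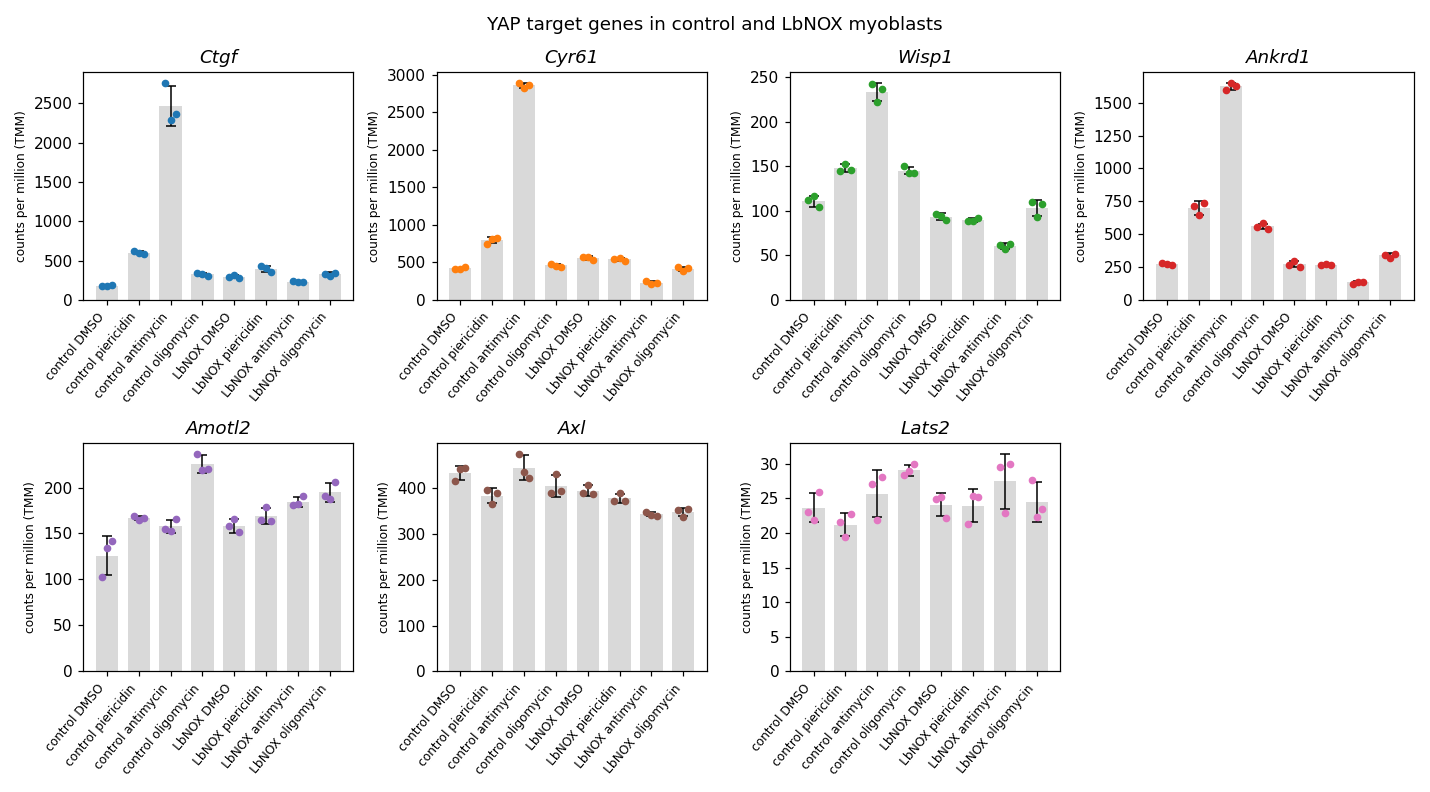
TMM-normalized CPM (y axis, linear from 0) of each of the 7 genes in control and LbNOX myoblasts by treatment (x axis); points are samples, bars are means and error bars are SD (n = 3). Ctgf, Cyr61 and Ankrd1 peak in control myoblasts with antimycin, and the LbNOX antimycin samples lie below their own DMSO samples for Ctgf, Cyr61, Ankrd1 and Wisp1.

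The next comparison asked whether oxidizing NADH changes these responses. In LbNOX myoblasts antimycin lowered Ctgf, Cyr61, Ankrd1 and Wisp1, which it raised in control cells, while Amotl2 was called higher in both. Cyr61 fell from 577, 575 and 531 CPM with DMSO to 251, 217 and 224 with antimycin, a log2 change of -1.22 (SE 0.05, adjusted p = 3.50e-19). Ankrd1 fell from 266, 298 and 254 to 124, 136 and 139.6, a log2 change of -0.98 (SE 0.06, adjusted p = 4.38e-14). The groups were apart for both genes, and the antimycin samples were the lower ones. Wisp1 changed by -0.57 ± 0.05 and Ctgf by -0.29 ± 0.06, with Ctgf at 236, 232 and 228 CPM against 298, 312 and 278. In all, 1 of the 7 genes (Amotl2, at 0.28 ± 0.08, a call lost without replicate number 3, log2 0.20 to 0.29) was higher and 5 were lower, where 46.1% of all genes were called (23.3% higher and 22.9% lower).

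The difference between the lines was itself tested as an interaction. For antimycin it was -4.09 (SE 0.09, adjusted p = 3.95e-25) for Ctgf, -4.02 ± 0.07 for Cyr61, -3.59 ± 0.09 for Ankrd1 and -1.68 ± 0.07 for Wisp1 on the log2 scale, and Axl was also called at -0.22 ± 0.07 (51.5% of all genes called). The Axl call was lost without replicate number 1 or 2 (log2 -0.26 to -0.18). With piericidin the LbNOX cells changed only Ctgf, from 298, 312 and 278 to 433, 401 and 359 CPM, at 0.43 (SE 0.06, adjusted p = 9.82e-06), where 8.87% of all genes were called. The piericidin interactions were -1.42 ± 0.08 for Ankrd1, -1.34 ± 0.09 for Ctgf and -0.99 ± 0.06 for Cyr61, and 5 of the 7 genes were called (44.3% of all genes). In LbNOX cells oligomycin changed 6 of the 7 genes (35.2% of all genes called), a count of 5 without replicate number 1 or 2 and of 3 without number 3. It still raised Ankrd1 by 0.36 (SE 0.06, adjusted p = 1.29e-05) and lowered Cyr61 with a log2 change of -0.39. In LbNOX cells with DMSO and oligomycin, cycling markers summed to 862 to 899 and 652 to 714 CPM. Markers of other cell types summed to 34.5 to 38.3 and 52.6 to 63.7 CPM, and myotube markers to 15.3 to 22.7 and 22.8 to 23.3. The part of these markers was not tested. For oligomycin 4 of the 7 genes had a called interaction, where 7.98% of all genes did, from -0.51 for Amotl2 to -0.69 for Ankrd1, and the Amotl2 call was lost without replicate number 1 or 2 (log2 -0.66 to -0.32).

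With the matrix enzyme mitoLbNOX the antimycin response was smaller than in control cells but kept its direction. Ankrd1 rose from 248, 256 and 214 to 531, 459 and 474 CPM, a log2 change of 1.05 (SE 0.06, adjusted p = 3.42e-15), Ctgf from 228, 264 and 231 to 419, 396 and 429, at 0.80 ± 0.06, and Cyr61 by 0.43 ± 0.05. The summed markers with DMSO and antimycin in these cells were 822 to 889.8 and 567 to 596 CPM for cycling myoblasts (1 higher and 4 lower of 6), 14.3 to 19.9 and 60 to 64.7 for myotubes (1 tested, higher) and 29.2 to 32.7 and 75.7 to 79.5 for other cell types (2 higher of 3 tested), and their part was not tested. Of the 7 genes 5 were higher with antimycin and 1, Axl, lower, a call lost without replicate number 2 (47.7% of all genes called). The interaction with antimycin was -3.00 (SE 0.09, adjusted p = 2.44e-21) for Ctgf, -2.37 ± 0.06 for Cyr61 and -1.56 ± 0.08 for Ankrd1 (31.7% of all genes called). With piericidin, mitoLbNOX cells changed Ctgf by 0.39 ± 0.06, and 3 of the 7 genes were called (11.2% of all genes), of which Ctgf alone was called without replicate number 1, 2 or 3. The interaction with piericidin was called for 4 of the 7 genes (42.8% of all genes). In NDI1 myoblasts piericidin changed 0 of the 7 genes, where edgeR called 0.00835% of all genes at the adjusted threshold, 1005 genes at an unadjusted p under 0.05, and DESeq2 called 6. Ctgf measured 268 and 267 CPM with DMSO and 274 and 264 with piericidin there, and its interaction was -1.76 (SE 0.10, adjusted p = 3.80e-15) (42.7% of all genes called).

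**Figure D2:**
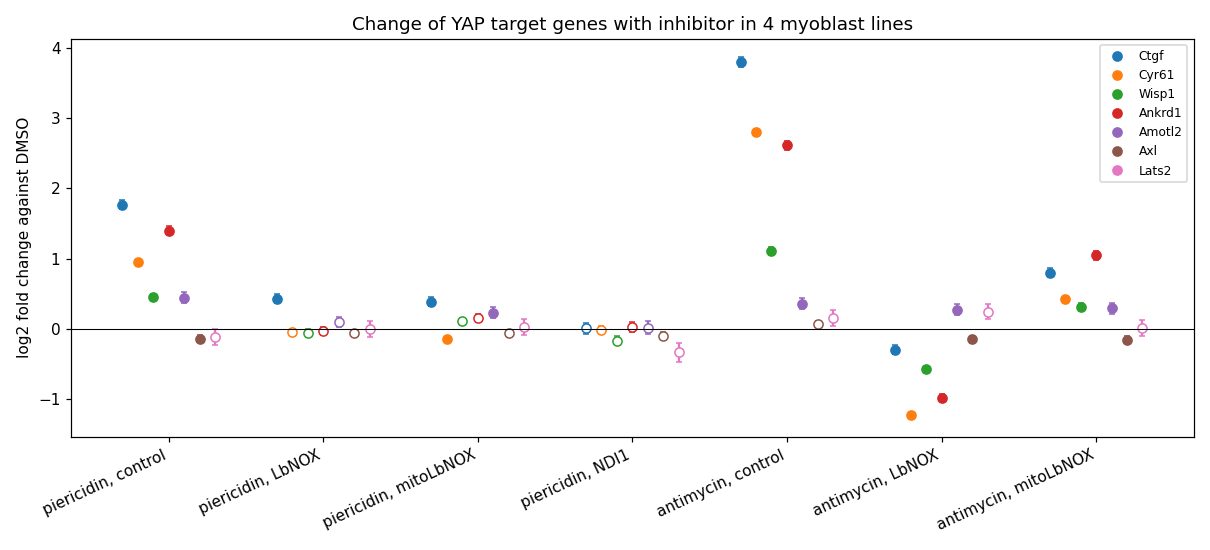
Log2 fold change against DMSO (y axis) of the 7 genes by inhibitor and myoblast line (x axis); filled points passed an adjusted p of 0.05, open points did not, and error bars are SE. Antimycin in control myoblasts gives 3.80 for Ctgf and in LbNOX myoblasts -0.29.

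The lines also differed from control myoblasts with DMSO. In LbNOX myoblasts Ctgf was higher than in control cells by 0.70 (SE 0.06, adjusted p = 6.02e-09) and Cyr61 by 0.42 ± 0.05, and 4 of the 7 genes were called where 2.68% of all genes were, a count of 2 without replicate number 1 or 2 and of 3 without number 3. In NDI1 cells Ctgf was higher by 0.55 ± 0.07 and Cyr61 by 0.54 (SE 0.05, adjusted p = 7.08e-09), with 3 called (4.61% of all genes). In mitoLbNOX cells Ctgf was higher by 0.40 (SE 0.06, adjusted p = 0.000157), a call lost without replicate number 2 (log2 0.32 to 0.45), with 2 called (1.77% of all genes), and 1, 0 and 1 called without replicate number 1, 2 and 3. These 3 comparisons share the same control samples, all from outer wells, and the transgene cannot be told apart from other differences between the separately made lines. Chloramphenicol for 48 hours changed Cyr61 alone in control myoblasts, from 386 and 401 to 294 and 295 CPM, a log2 change of -0.37 (SE 0.05, adjusted p = 0.00222), where 8.45% of all genes were called. It changed 0 of the 7 in LbNOX cells, where edgeR called 0.931% of all genes, 1498 genes at an unadjusted p under 0.05, and DESeq2 called 178. The interaction of chloramphenicol and LbNOX was called for 0 of the 7 genes by edgeR (2 at an unadjusted p under 0.05) and for 1 by DESeq2, where edgeR called 0.53% of all genes. Control myoblasts with DMSO for 48 hours had less Ctgf than those with DMSO for 10 hours, at 122 and 119 against 175, 181 and 189 CPM, a log2 change of -0.58 (SE 0.06, adjusted p = 0.000146), the 1 gene of the 7 called (1.59% of all genes), and the call was lost without replicate number 1 or 2 (log2 -0.63 to -0.55). By the study's methods the cultures for chloramphenicol treatment were seeded more sparsely and the treatment was given with uridine, so duration, density and medium cannot be told apart here.

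Beside the 7 genes, lists of related genes were described by counts. With antimycin in control myoblasts, 32.1% of all genes were called higher and 31.1% lower. The lists were chosen with earlier results of these data known, so a count above these shares is a description and not a test. Of 12 genes of serum response factor and actin, antimycin raised 11 and lowered 0 in control myoblasts, with a median log2 fold change of 1.27, led by the focal adhesion gene Zyx at 1.74 (SE 0.04, adjusted p = 7.89e-26), the smooth muscle actin gene Acta2 at 1.65 ± 0.04 and the calponin gene Cnn1 at 1.48 ± 0.07. Of 6 TGF-beta response genes tested, 5 rose, with a median of 1.49. Among 15 other YAP and TAZ readouts 7 rose and 3 fell, with a median of 0.33, and the largest changes were those of Gadd45a, a stress-response gene, at 6.03 (SE 0.31, adjusted p = 8.44e-17) and F3, tissue factor, at 3.85 ± 0.13. The Hippo pathway list was mixed, with 11 higher and 7 lower of 26, near the shares of all genes.

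The coactivators and their partners moved less than the 7 genes did at most. Yap1 had a log2 change of 0.09 (SE 0.09, adjusted p = 0.371) with antimycin in control myoblasts, while Wwtr1, which encodes TAZ, rose by 0.81 (SE 0.08, adjusted p = 1.36e-10). Tead1 rose by 0.69 ± 0.09 and Tead4 by 1.77 ± 0.28. In LbNOX myoblasts antimycin lowered Wwtr1 with a log2 change of -0.41 and Tead1 with one of -0.56. In the same cells the other YAP and TAZ readouts counted 1 higher and 6 lower of 15 (median -0.34), the Hippo pathway list 2 higher and 12 lower of 26, the related family members 0 higher and 4 lower of 9, and the TGF-beta response genes 3 higher and 2 lower of 6. There 8 of the 12 actin genes rose and 3 fell, with a median of 0.34, against 23.3% of all genes called higher and 22.9% lower. Of the related family members with antimycin in control cells, 1 rose and 4 fell of 9, the one that rose being the CCN gene Wisp2 at 1.73 (SE 0.46, adjusted p = 0.00167). The motin gene Amot fell with a log2 change of -1.54.

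**Figure D3:**
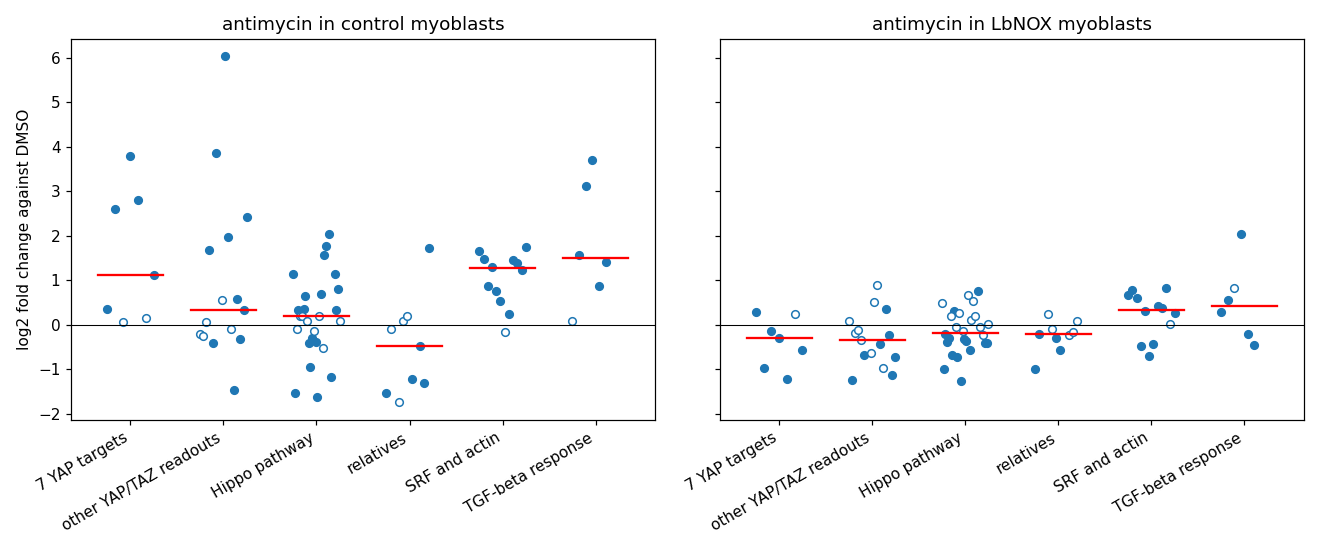
Log2 fold change with antimycin against DMSO (y axis) for each gene of 6 lists (x axis) in control (left) and LbNOX (right) myoblasts; filled points passed an adjusted p of 0.05, open points did not, and red lines are medians. The median of the 7 YAP targets is 1.11 in control myoblasts and -0.29 in LbNOX myoblasts.

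Levels with DMSO differed between the cell states. Ctgf was 175, 181 and 189 CPM in control myoblasts, 69.3, 73.7 and 70.8 in day 1 cells and 56.4, 58.8 and 57.9 in myotubes. Cyr61 went from 411, 416 and 434 to 189, 179 and 174 and 133, 133 and 131, and Axl from 416, 443 and 444 to 187, 206 and 200.4 and 168, 171 and 152. Samples of these 3 genes did not overlap between states. Over all genes, 63.6% were called between control myoblasts and day 1 cells and 35.6% between day 1 cells and myotubes. The second step was the smaller one for these 3 genes. With 1 replicate number left out its log2 fold change was -0.34 to -0.31 for Ctgf, -0.51 to -0.42 for Cyr61 and -0.33 to -0.25 for Axl. Myotubes against control myoblasts gave log2 fold changes of -1.67 (SE 0.04, adjusted p = 1.98e-23) for Cyr61, -1.66 ± 0.09 for Ctgf and -1.41 ± 0.06 for Axl.

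Wisp1 and Ankrd1 were higher in untransduced myotubes than in control myoblasts. Wisp1 was 215, 214 and 222 CPM in day 1 cells and 245, 235 and 223 in myotubes, log2 fold changes of 0.95 ± 0.05 and 1.08 (SE 0.05, adjusted p = 1.54e-18) against control myoblasts. Ankrd1 was lower in day 1 cells (247, 230.3 and 228 CPM, -0.23 ± 0.06, a call lost without replicate number 3, log2 -0.25 to -0.17) and higher in myotubes (415, 397 and 407 CPM, 0.57 ± 0.06). In transduced myotubes with DMSO, Ankrd1 measured 254 and 244 CPM with GFP and 259.9, 241 and 262 with LbNOX, all below the control myoblasts. Amotl2 was level, at 0.04 ± 0.10. In myotubes 2 of the 7 genes were higher and 4 lower (69.4% of all genes called), and in day 1 cells 1 was higher and 4 lower (63.6% of all genes called). Myotube markers rose in both states, all 7 of 7. The summed level of the 6 markers of cycling myoblasts was 924 to 952 CPM in control myoblasts, 358 to 379.5 in day 1 cells and 253 to 262 in myotubes, and 3 of the 6 fell against control myoblasts in each state while 3 and 2 rose. Their part in these differences was not tested.

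**Figure D4:**
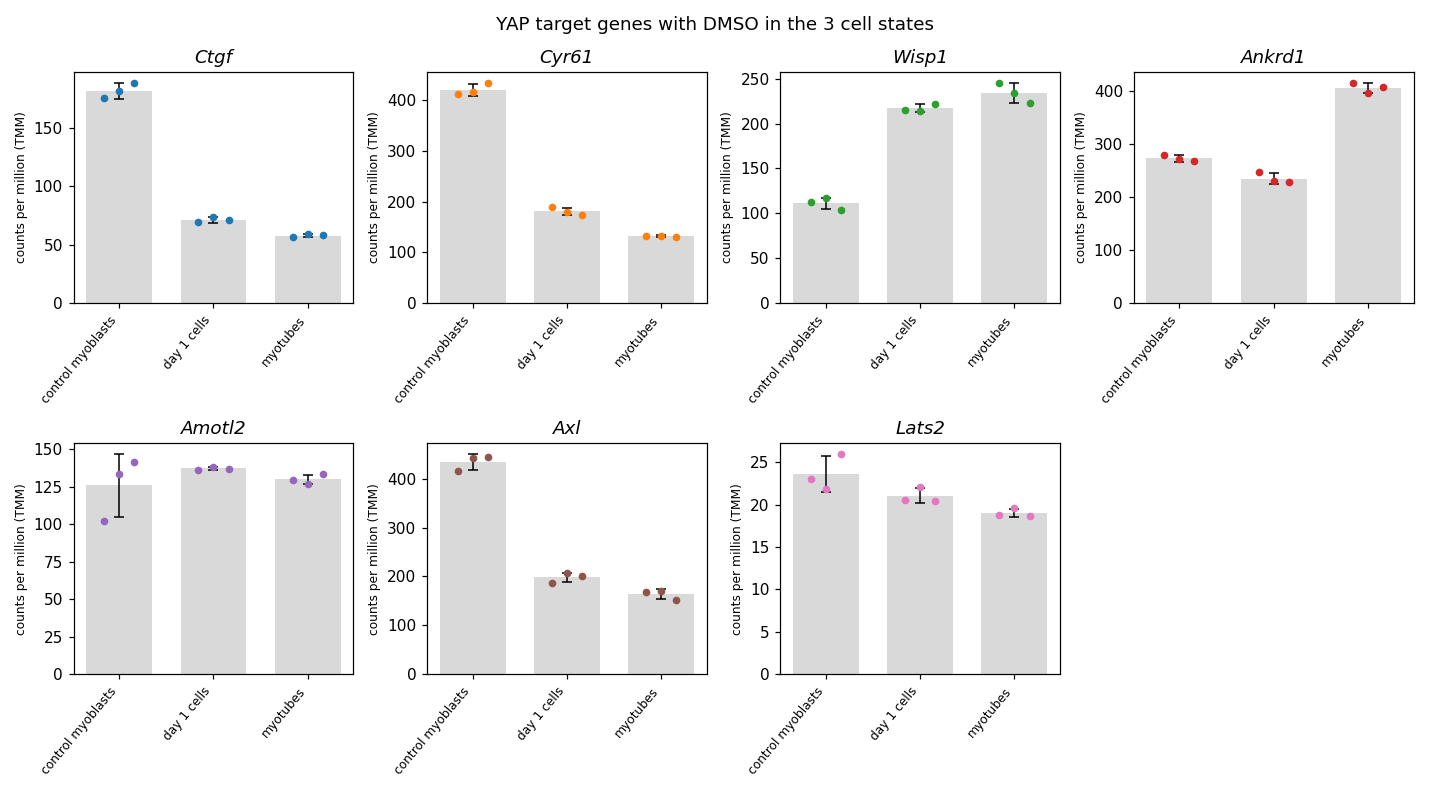
TMM-normalized CPM (y axis, linear from 0) of the 7 genes with DMSO in control myoblasts, day 1 cells and myotubes (x axis); points are samples, bars means and error bars SD (n = 3). Ctgf, Cyr61 and Axl are lowest in myotubes and Wisp1 is lowest in control myoblasts.

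In myotubes the inhibitors did not raise Ctgf or Cyr61. Ctgf was 56.4, 58.8 and 57.9 CPM with DMSO, 30.6, 34.8 and 32.6 with piericidin, 25.7, 31.9 and 33.6 with antimycin and 38, 41.6 and 39.4 with oligomycin, and each treated group lay below DMSO. The log2 fold changes were -0.91 (SE 0.14, adjusted p = 3.97e-05) with antimycin, -0.80 ± 0.14 with piericidin and -0.50 ± 0.13 with oligomycin, and the oligomycin call was lost without replicate number 1 (log2 -0.54 to -0.48). Cyr61 changed by -0.45 (SE 0.06, adjusted p = 2.81e-06), -0.33 ± 0.06 and -0.32 ± 0.06 in the same order. Of the 7 genes, piericidin lowered 4 (8.99% of all genes called), antimycin lowered 2 (12.9%), and oligomycin lowered 3 and raised 1 (33.3%). In the same samples the 13 markers of other cell types summed to 41.3 to 44.1 CPM with DMSO, 22.5 to 28.8 with piericidin, 27 to 35.3 with antimycin and 29 to 35.8 with oligomycin, with 1 higher and 1 lower of 3 tested for each inhibitor. The 7 myotube markers summed to 12886 to 13353 CPM with DMSO, 14501 to 14934 with piericidin, 14038 to 14446 with antimycin and 14419.5 to 15251 with oligomycin, with 2 higher for each inhibitor and 4, 4 and 3 lower, and the cycling markers to 253 to 262 CPM with DMSO, 253 to 269 with piericidin, 240.2 to 261 with antimycin and 236 to 263 with oligomycin, with 1 of 6 higher for each and 0, 0 and 1 lower. Their part in these changes was not tested. As an interaction of treatment and state, the antimycin response in myotubes differed from that in control myoblasts by -4.66 (SE 0.13, adjusted p = 1.21e-21) for Ctgf and -3.20 ± 0.06 for Cyr61 (47.9% of all genes called). The piericidin interaction with state was -2.52 ± 0.13 for Ctgf (46.5% of all genes called), and in day 1 cells against control myoblasts it was -1.87 ± 0.13 (46.6%).

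Ankrd1 parted from the CCN genes with oligomycin. It rose from 415, 397 and 407 CPM with DMSO to 1323, 1018 and 1308 with oligomycin, a log2 change of 1.62 (SE 0.08, adjusted p = 1.31e-14), whereas it was 263, 291 and 292 with piericidin and 351, 329.6 and 357 with antimycin. Only the oligomycin samples stood above DMSO. The oligomycin response of Ankrd1 was larger in myotubes than in control myoblasts, with an interaction of 0.56 (SE 0.09, adjusted p = 1.56e-05) (29% of all genes called). When oligomycin was combined with a second agent, Ankrd1 lay near the DMSO level, at 359.8, 382 and 351 CPM with piericidin, 324, 365 and 333 with BAM15 and 454, 455 and 400.1 under hypoxia. Against oligomycin alone these were log2 fold changes of -1.74 (SE 0.08, adjusted p = 1.14e-14), -1.81 ± 0.08 and -1.46 ± 0.08. The shares of all genes called were 20.9%, 26.1% and 33.3%, and the 3 comparisons share the oligomycin samples.

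The oligomycin rise of Ankrd1 was also present in transduced myotubes, from 254 and 244 to 946 and 874 CPM with GFP and from 259.9, 241 and 262 to 940.0, 943 and 897 with LbNOX. The log2 fold change was 1.86 ± 0.07 in GFP cells and 1.86 ± 0.06 in LbNOX cells (25.9% and 32% of all genes called), and the interaction was 0.01 (SE 0.09, adjusted p = 0.999). For this interaction edgeR called 0 of 12397 genes, 525 genes at an unadjusted p under 0.05, and DESeq2 called 1. Oligomycin changed 2 of the 7 genes with GFP and 3 with LbNOX (2 without replicate number 1, 2 or 3). Piericidin lowered 3 of the 7 genes with GFP, where 3.09% of all genes were called, with Ctgf at -0.68 (SE 0.07, adjusted p = 7.23e-05). Without replicate number 1 or 2, 1 GFP sample per group is left and the spread comes only from the LbNOX groups. Calls with GFP were then lost for both inhibitors. With LbNOX piericidin lowered 4, where 6.78% of all genes were called, with Ctgf at -0.67 (SE 0.06, adjusted p = 4.64e-06) and Cyr61 at -0.39 ± 0.05, and 2 were called when any replicate number was left out. With DMSO and piericidin, the 13 markers of other cell types summed to 27.8 to 31.0 and 20.5 to 21.8 CPM with GFP and 29.5 to 33.6 and 21.6 to 25.2 with LbNOX. The 7 myotube markers summed to 11706 to 11987 and 13800 to 14644 CPM with GFP and 11771 to 12732 and 14411 to 15383 with LbNOX. Sums of cycling markers overlapped, and the part of these markers was not tested. In day 1 cells oligomycin raised Ankrd1 from 247, 230.3 and 228 to 428, 415 and 440.3 CPM, at 0.87 (SE 0.05, adjusted p = 3.52e-07), and lowered Cyr61 with a log2 change of -0.50 (20.7% of all genes called). The interaction of oligomycin with state, day 1 cells against control myoblasts, was called for 4 of the 7 genes (24.9% of all genes). Piericidin in day 1 cells lowered Cyr61 alone, at -0.62 (SE 0.06, adjusted p = 0.00022), where 2.75% of all genes were called. The 13 markers of other cell types summed there to 39.3 to 42.2 CPM with DMSO and 31.1 to 33.2 with piericidin. Cycling markers summed to 358 to 379.5 and 373 to 384 CPM, and myotube markers to 10976 to 11495 and 11125 to 11681. Their part was not tested.

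Under hypoxia the CCN genes of myotubes moved in both directions, with Ctgf and Cyr61 higher and Wisp1 lower. Ctgf was 129, 131 and 136 CPM under hypoxia, all above the DMSO samples, a log2 change of 1.24 (SE 0.13, adjusted p = 5.83e-08). Amotl2 rose to 196, 192 and 176 CPM from 129, 127 and 133, at 0.58 (SE 0.06, adjusted p = 1.96e-08), and Cyr61 by 0.43 ± 0.06, and Wisp1 fell with a log2 change of -0.35. These were 3 genes higher and 1 lower, where 22.1% of all genes were called. The 6 markers of cycling myoblasts summed to 253 to 262 CPM with DMSO and 161 to 164 under hypoxia, where 4 fell and 0 rose. The 13 markers of other cell types summed to 41.3 to 44.1 and 29.9 to 34.6 CPM (1 higher and 1 lower of 3 tested), and the 7 myotube markers to 12886 to 13353 and 13643 to 14776 CPM (2 higher and 2 lower). Their part in the hypoxia changes was not tested. Among the partners Wwtr1 rose by 0.25 ± 0.07 and Tead1 by 0.32 ± 0.08. Under hypoxia, oligomycin lowered Ctgf in myotubes to 69.1, 73.1 and 53.4 CPM, a log2 change of -1.01 (SE 0.13, adjusted p = 1.17e-05), and Ankrd1 changed by 0.14 (SE 0.07, adjusted p = 0.37) (4.26% of all genes called). The uncoupler BAM15 raised none of the 7 and lowered Wisp1 (-0.50 (SE 0.05, adjusted p = 1.07e-08)), Ankrd1 (-0.36) and Cyr61 (-0.34), where 25.4% of all genes were called. With BAM15 the marker sums were 207 to 234 CPM for cycling myoblasts, 33.7 to 38.2 for other cell types and 14357 to 15769 for myotubes. Their part was not tested.

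**Figure D5:**
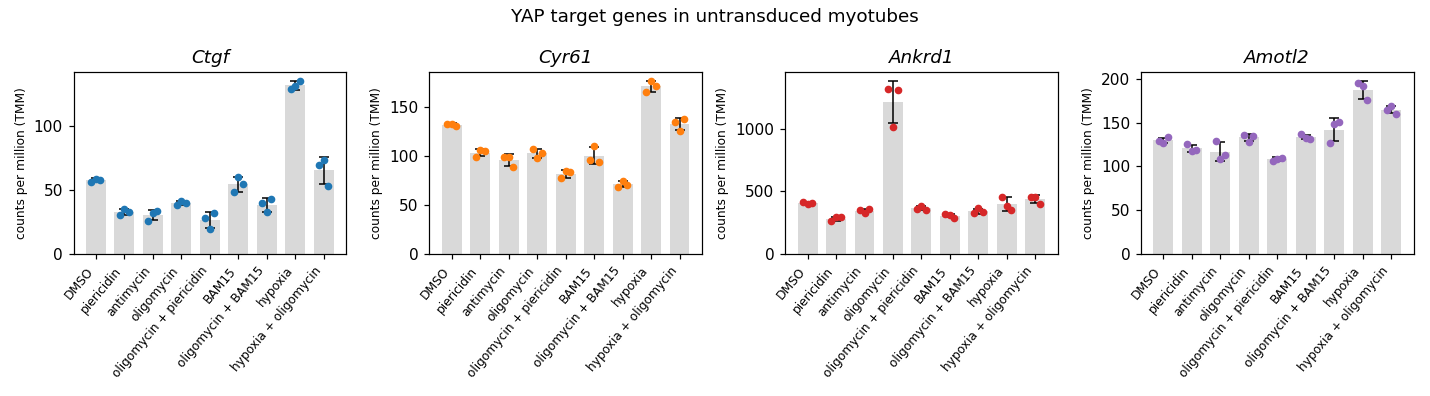
TMM-normalized CPM (y axis, linear from 0) of Ctgf, Cyr61, Ankrd1 and Amotl2 in untransduced myotubes by treatment (x axis); points are samples, bars means and error bars SD (n = 3). Ankrd1 is high with oligomycin alone, and Ctgf is highest under hypoxia.

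How closely the genes followed each other depended on the cells. Over the 13 conditions of myoblasts treated for 10 hours, Pearson's r of mean log2 CPM was 0.95 between Wisp1 and Ankrd1 (Spearman's rho 0.79), 0.90 between Ctgf and Cyr61 (0.60) and 0.88 between Ctgf and Ankrd1 (0.75). These were the highest pairs. Among Ctgf, Cyr61, Wisp1 and Ankrd1, r ran from 0.78 to 0.95 (rho 0.40 to 0.79). For pairs with Amotl2, Axl or Lats2, r ran from -0.55 to 0.58. Over the 15 myotube conditions r stayed at 0.86 between Ctgf and Cyr61 (rho 0.87) and was 0.01 between Ctgf and Ankrd1 (0.17). There r ran from -0.08 to 0.86 among Ctgf, Cyr61, Wisp1 and Ankrd1. For pairs with Amotl2, Axl or Lats2 it ran from -0.20 to 0.80. Some of these were higher than in myoblasts, such as Axl with Lats2 (0.80 against 0.06). Conditions of the same line share its cells, and all conditions share one normalization, so these are descriptions. Among 9684 genes, the pattern most like that of Ctgf over all 35 conditions was that of Cyr61 (r = 0.97), and r was 0.95 for Tpst2. Wisp1 was most like Ctnna1 (0.95), followed by Rabgap1 and Wwtr1 (0.93 each). Ankrd1 was most like Ppp1r15a and Atf3 (0.88 each), genes of the integrated stress response, then Alkbh1 (0.87). Axl was most like Gpd2, Cap1 and Actr2 (0.99 each), Amotl2 most like Ccdc50 (0.85), and Lats2 most like Mprip (0.92). Myoblasts and myotubes form separate clusters in these values, and apart from Ctgf with Cyr61 no r within a state was taken for these pairs.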

How the data were processed

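RNA-seq was measured in 96 C2C12 samples. From Smart-seq2 libraries of polyA RNA, the authors estimated transcript abundance with kallisto 0.44 on mouse and transgene sequences and deposited estimated counts summed per gene, as whole numbers and not normalized. Multi-mapping reads were thereby shared between similar transcripts, and libraries were not strand-specific. Groups and replicate numbers were taken from the labels. Here counts were normalized with TMM, and genes reaching 16 counts in all replicates of any condition in a fit were tested with the quasi-likelihood test of edgeR 4.0.16 (R 4.3.3), in 7 fits with 51 comparisons, with Benjamini-Hochberg adjustment over all genes of a comparison and a threshold of 0.05. SE is the absolute log2 fold change over the square root of F. The test was tried on simulated data: for piericidin in control myoblasts 102 of 111 genes changed by 1 on the log2 scale were recovered among 11602 genes with 12 false calls, and for chloramphenicol in control myoblasts, with 2 samples a group, 85 of 107 among 11460 genes with 15 false calls. Of genes changed by 2 in the same simulations, 89 of 89 and 91 of 93 were recovered, and the false calls are those of each whole simulation. Far fewer genes were changed there than the 61.7% called with piericidin in the data, so calling in such data was not measured. Levels are TMM CPM; lengths and coordinates came from GENCODE M21 (GRCm38). Likeness used log2(CPM + 0.5) and genes with a mean of at least 50 counts, without predicted genes. From each gene list, the called genes with the largest changes were named, up to 3 per comparison, with Yap1, Wwtr1 and the Tead genes; some genes that these rules select are not reported here. The 7 genes and the lists were chosen with earlier results of these data known. Plate codes (A01 to H12) were read as wells. Same-numbered samples deviated together at a mean r between -0.041 and 0.054 in the 7 fits. Alternatives were DESeq2 size factors, no filter, the DESeq2 Wald test, replicate and well terms, and leaving out replicates.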

Additional observations from a re-analysis of the deposited data

Results flagged for a closer look

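Responses that differed between lines or states by an interaction test in edgeR were looked at again. Each was set against the response of control myoblasts, and the number of the 7 genes with a called difference was 5 for piericidin in LbNOX myoblasts (44.3% of all genes), 5 for antimycin in LbNOX myoblasts (51.5% of all genes), 4 for oligomycin in LbNOX myoblasts (7.98% of all genes), 4 for piericidin in mitoLbNOX myoblasts (42.8% of all genes), 5 for antimycin in mitoLbNOX myoblasts (31.7% of all genes), 5 for piericidin in NDI1 myoblasts (42.7% of all genes), 6 for piericidin in myotubes (46.5% of all genes), 5 for antimycin in myotubes (47.9% of all genes), 5 for oligomycin in myotubes (29% of all genes), 5 for piericidin in day 1 cells (46.6% of all genes) and 4 for oligomycin in day 1 cells (24.9% of all genes).

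Some of the 7 genes were called in opposite directions in the pair compared. Antimycin in LbNOX myoblasts differed from control myoblasts by -4.09 for Ctgf, -4.02 for Cyr61, -1.68 for Wisp1 and -3.59 for Ankrd1 on the log2 scale. Piericidin in myotubes differed from control myoblasts by -2.52 for Ctgf, -1.24 for Cyr61, -0.59 for Wisp1 and -1.86 for Ankrd1 on the log2 scale. Piericidin in day 1 cells differed from control myoblasts by -1.52 for Cyr61 on the log2 scale. Antimycin in myotubes differed from control myoblasts by -4.66 for Ctgf and -3.20 for Cyr61 on the log2 scale. Oligomycin in myotubes differed from control myoblasts by -1.36 for Ctgf, -0.47 for Cyr61 and -0.57 for Wisp1 on the log2 scale. Oligomycin in day 1 cells differed from control myoblasts by -0.61 for Cyr61 on the log2 scale. Oligomycin in LbNOX myoblasts differed from control myoblasts by -0.54 for Cyr61 on the log2 scale. Piericidin in mitoLbNOX myoblasts differed from control myoblasts by -1.10 for Cyr61 on the log2 scale. The opposite directions of Cyr61 with oligomycin rest on a call of 0.15 in control myoblasts that was lost without replicate number 1 or 2 (log2 0.11 to 0.19), and those with piericidin in mitoLbNOX myoblasts on a call of -0.14 there that was lost without replicate number 1, 2 or 3 (log2 -0.16 to -0.13). The opposite direction of Ctgf with oligomycin in myotubes rests on a call in myotubes that was lost without replicate number 1.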

How the results depend on the processing

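Of 421 recomputed counts of called genes among the 7, in 51 comparisons, 397 stayed within 1.5 times the main count. Of 1618 recomputed log2 fold changes of single genes, 1487 kept their direction and their side of the threshold, 100 lost the call, 31 gained one and 0 reversed. With DESeq2 size factors in edgeR, the number of the 7 genes called was 1 (reported as 2) for mitoLbNOX against control, DMSO myoblasts. Without the count filter, the number of the 7 genes called was 4 (reported as 2) for mitoLbNOX against control, DMSO myoblasts, 1 (reported as 0) for chloramphenicol against DMSO, LbNOX myoblasts, 1 (reported as 0) for the interaction of chloramphenicol and LbNOX, myoblasts, 2 (reported as 1) for piericidin against DMSO, day 1 cells, 2 (reported as 1) for 48 hr DMSO against 10 hr DMSO, control myoblasts. With the DESeq2 Wald test, the number of the 7 genes called was 1 (reported as 0) for the interaction of chloramphenicol and LbNOX, myoblasts. Leaving out 1 replicate number at a time gave counts of 3 to 5 (reported as 6) for oligomycin against DMSO, LbNOX myoblasts, 1 (reported as 3) for piericidin against DMSO, mitoLbNOX myoblasts, 2 to 3 (reported as 4) for LbNOX against control, DMSO myoblasts, 0 to 1 (reported as 2) for mitoLbNOX against control, DMSO myoblasts, 0 to 3 (reported as 3) for piericidin against DMSO, GFP myotubes, 1 to 2 (reported as 2) for oligomycin against DMSO, GFP myotubes, 2 (reported as 4) for piericidin against DMSO, LbNOX myotubes, 0 to 1 (reported as 1) for 48 hr DMSO against 10 hr DMSO, control myoblasts. The cause was not tested, beyond the fewer samples in these fits. For GFP myotubes and for DMSO at 48 hours, leaving out replicate number 1 or 2 leaves 1 sample in a compared group. The spread then comes only from other groups, so these counts say little. Over all genes the largest shifts came without the filter, from 1 to 552 genes called for piericidin in NDI1 myoblasts and from 109 to 750 for chloramphenicol in LbNOX myoblasts. In the 48 hour experiment, where leaving out a replicate number leaves no residual degrees of freedom, each of the 8 samples was left out in turn, a choice made after seeing the data, and no count of the 7 genes moved. Same-numbered samples share only a number: with the replicate number as a block, the count for antimycin in control myoblasts was 5, no count of the 7 genes moved by over 1.5 times, and 2 single calls were gained, both for Lats2. With the window cut to the bases before the start, 4 of the 5 matched genes (not Lats2) and 12.6% of promoters held the TEAD core, 1.47% the CArG box, 6.75% the AP-1 site and 3.45% the ATF4 site. With DESeq2 size factors, Actr2 left the 3 genes most like Axl, and no other gene left. The lowest count of any of the 7 genes in a sample was 108.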

Other observations

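In day 1 cells 1 oligomycin sample stood apart from the other 2 for both Ctgf (54.4, 55 and 74.7 CPM) and Amotl2 (151, 146 and 108 CPM), in opposite directions.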
